A study of Danio rerio with 2 samples.

Results

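The genes described here encode the enzymes and cofactors that cut and chemically modify transfer RNA (tRNA). They were chosen by symbol: every gene whose symbol starts with trmt, tsen, nsun, alkbh or ctu, or with elp, pus or rpp followed by a digit, together with trnt1, pop1, pop4, pop5 and pop7. The rule found 59 of the 37423 genes in the tables. It used no measured value.

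RNA polymerase III makes tRNAs as precursors that are trimmed at both ends, freed of introns where they have one, given the CCA end to which the amino acid is attached, and modified at many bases. Modifications in the anticodon loop tune decoding, and those in the body of the molecule stabilise its fold. The enzymes are themselves made from messenger RNAs by RNA polymerase II, so their transcripts are visible in a poly(A) library while the tRNAs are not. Not every gene that the symbols bring in works on tRNA: in other vertebrates alkbh5 removes a methyl group from adenosines of messenger RNA, alkbh2 repairs alkylated DNA, nsun5 methylates ribosomal RNA of the large subunit and nsun4 that of mitochondria. The proteins of RNase P, which removes the 5′ leader of a pre-tRNA, are largely shared with RNase MRP, which acts on pre-ribosomal RNA.

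The study compared zebrafish homozygous for sa907, a nonsense allele of polr3a, which encodes the largest subunit of RNA polymerase III, with their polr3a+/+ siblings. The parents were polr3a sa907/+ and carried the reporters Tg(fli1a:egfp) or Tg(sox10:mRFP). At 3 dpf (days post fertilization), 10 heads per genotype, cut at the level of the pectoral fin, were pooled, dissociated and sorted for viable cells, and 1 library per genotype was made with 10x Genomics 3′ chemistry, which counts transcripts by unique molecular identifiers (UMIs) near their 3′ ends. Eggs are supplied with maternal polr3a product, so the homozygotes are not a full null, and pooling leaves no value for a single animal. With 1 library per condition there was no replicate check and no test was possible. Differences below are between these 2 libraries, and all intervals cover counting error only.

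The mutant library held 26454 cells and 130701622 UMIs after filtering and the wild-type library 36996 cells and 159367137 UMIs, with medians of 4044.5 and 3401.5 UMIs per cell. The 59 members took 108043 UMIs in the mutant library and 117974 in the wild-type library. polr3a itself had 2135 and 2192 UMIs, 16.3 and 13.8 UMIs per 1000000 (CPM), so it was not lower in the library labelled mutant. By quantitative RT-PCR the paper reports a significant decrease of this transcript in homozygotes of the same age. It also reports lower pre-tRNA levels at that age and less full-length Polr3a protein in older homozygotes. Its fish were genotyped from fin clips before the heads were pooled. Why the library values differ from the RT-PCR result was not tested. UMIs at the 3′ end do not read the altered base and do not check the genotype. The libraries shared 405 cell barcodes, 280 of them among kept cells.

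Most members were somewhat more abundant in the mutant library. Summed over all cells, the 59 genes stood at 827 CPM (95% Poisson interval 822 to 832) in the mutant library and 740 CPM (736 to 745) in the wild-type library, a log2 ratio of 0.16 (0.15 to 0.17). A gene was called higher where the ratio of mutant to wild-type CPM was at least 1.2 and its exact 95% interval lay above 1, and lower where it was at most 0.8 with the interval below 1. Of the 58 members with a mean of at least 1 CPM, 20 were called higher, 1 lower and 37 neither. Among all 19256 genes of that level, 17.7% were called higher and 4.74% lower. The ratio was above 1 for 52 of the 58 members (89.7%) and for 66.9% of all genes. The median log2 ratio was 0.19 for the members and 0.07 for all genes. The remaining member, pop1, which encodes the largest protein of RNase P, had 37 and 38 UMIs and was not tested.

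The size of these differences was small for most genes. At a threshold of 1.5-fold only 2 members, alkbh2 and tsen34, were called higher and 0 lower, beside 3.74% and 1.28% of all genes. Among the 31 members of at least 10 CPM, 8 were called higher and 0 lower, beside 13.9% and 2.99% of the 11837 genes of that level, and the medians were 0.15 and 0.07.

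**Figure D1:**
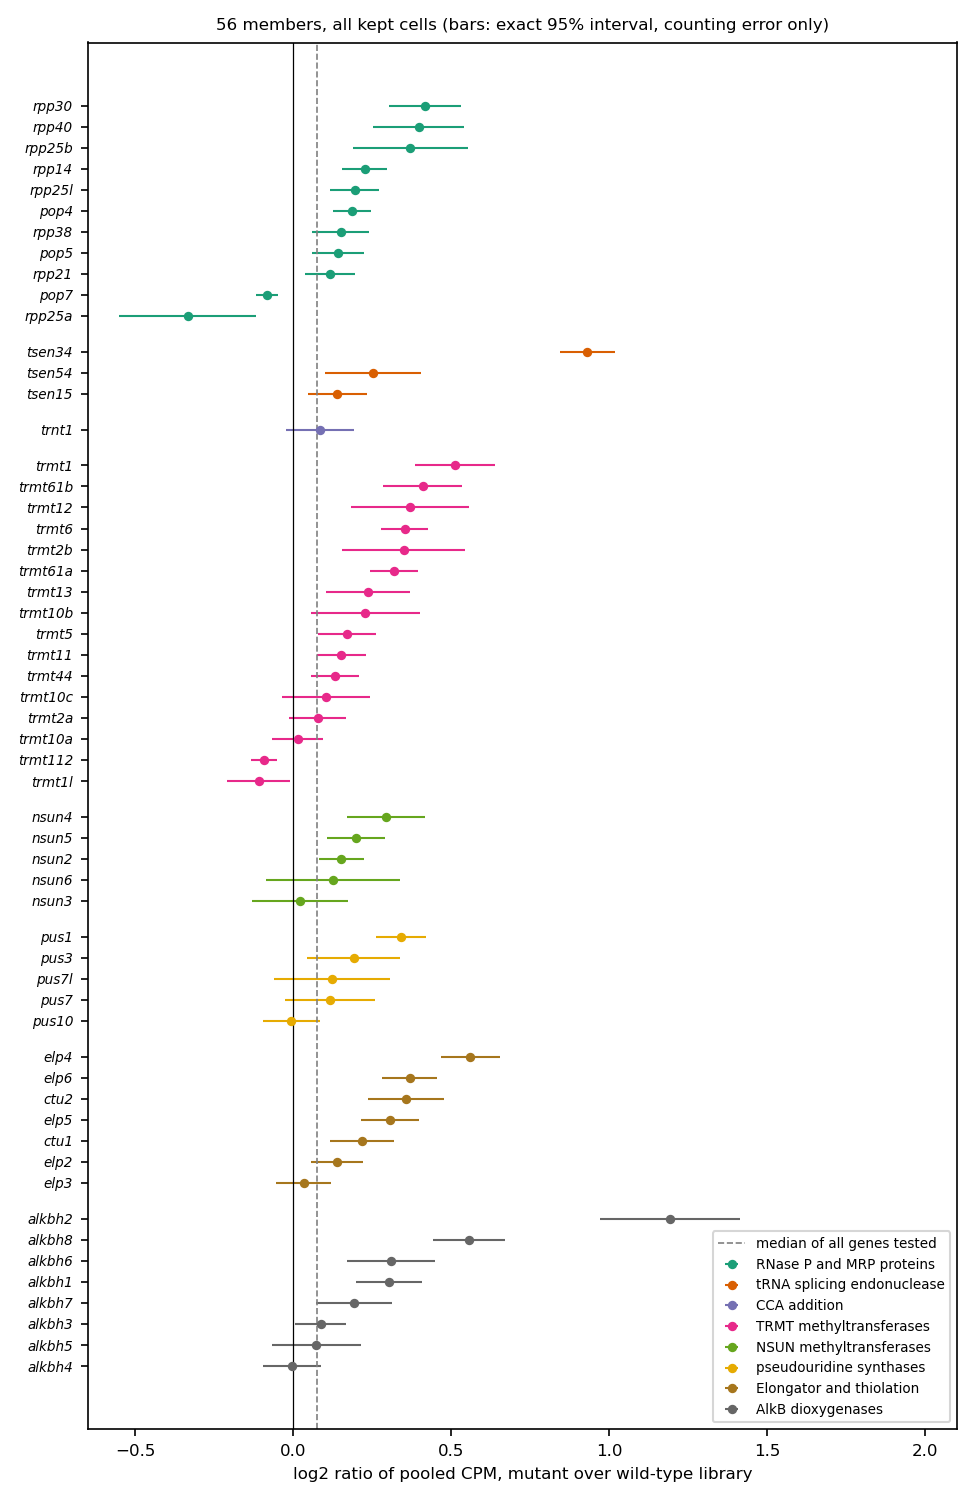
Log2 ratio of pooled CPM (mutant over wild type, x axis) for 56 members over all kept cells, grouped and coloured by role; bars are exact 95% intervals for counting error only, the solid line marks 0 and the dashed line the median of all genes, 0.07. tsen34 at 0.93 and alkbh2 at 1.19 stand right of the others, and rpp25a at -0.33 is farthest left.

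The tRNA splicing endonuclease, which excises introns from pre-tRNAs, is a complex in which tsen34 is a catalytic subunit and tsen15 and tsen54 are structural. tsen34 was the member with the largest ratio among those of at least 10 CPM. It had 2724 UMIs in the mutant library (20.8 CPM, 20.1 to 21.6) and 1742 in the wild-type library (10.9 CPM, 10.4 to 11.5), a log2 ratio of 0.93 (0.84 to 1.02). This was above 98.7% of all genes tested. The structural subunits did not share this size: tsen54 had a log2 ratio of 0.25 and tsen15 of 0.14, and neither was called. The gene model of tsen34 overlaps that of bcl7bb in the reference used for neighbours, and since the strand setting of the counting was not stated, reads of overlapping genes cannot be told apart. The log2 ratio of bcl7bb was 0.04 (-0.03 to 0.11).

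The RNase P and MRP proteins had 3 of 11 tested members higher and 1 lower, beside 17.7% and 4.74% of all genes. Their median log2 ratio was 0.19. Those called higher were rpp30, rpp40 and rpp25b, at 0.42, 0.40 and 0.37. pop7, whose human counterpart pairs with RPP25 on the RNA of both enzymes, had the most UMIs of any member, 11184 UMIs (85.6 CPM) in the mutant library and 14441 (90.6 CPM) in the wild-type library. Its log2 ratio was -0.08 (-0.12 to -0.05), which turned to 0.00696 when both libraries were given the cell type shares of the wild-type library. rpp25a was the only member called lower, with 289 UMIs (2.21 CPM) in the mutant library and 444 (2.79 CPM) in the wild-type library, a log2 ratio of -0.33 (-0.55 to -0.12). It was not called lower with the wild-type cell type shares. Its paralog rpp25b lay on the other side, and how reads common to the pair were assigned is not known. UMIs of rpp25a lay in only 128 mutant and 233 wild-type cells, and those of rpp25b in 239 and 265. The intervals treat UMIs of 1 cell as independent, and the part of the share of such cells in these ratios was not tested.

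The 16 TRMT genes encode tRNA methyltransferases and their partners. Of these, 6 were called higher and 0 lower, beside 17.7% and 4.74% of all genes. Their median log2 ratio was 0.20. trmt6 and trmt61a encode the partners of the enzyme that methylates an adenosine in the T loop of cytosolic tRNAs, including the initiator tRNA. trmt6 stood at 22.9 CPM in the mutant library and 17.9 CPM in the wild-type library, and trmt61a at 21.8 and 17.4 CPM. Their log2 ratios were close, at 0.35 (0.28 to 0.43) and 0.32 (0.24 to 0.39). trmt61b, the mitochondrial counterpart of trmt61a, had a log2 ratio of 0.41, and trmt1, which dimethylates a guanosine, one of 0.51. trmt112, the small cofactor of several methyltransferases including that of trmt11, had the next most, 8341 UMIs (63.8 CPM) and 10848 UMIs (68.1 CPM). Its log2 ratio was -0.09 (-0.13 to -0.05), while that of trmt11 was 0.15. trmt1l had a log2 ratio of -0.11 and trmt10a, a guanosine methyltransferase, one of 0.01, and neither was called.

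Modification of the wobble uridine in the anticodon begins with the Elongator complex, in which elp2 and elp3 belong to the core and elp4, elp5 and elp6 form a ring of ATPase-like proteins bound to it. The methyl group is completed by alkbh8 together with trmt112, and ctu1 and ctu2 replace an oxygen with sulfur. The ring subunits had the larger ratios. elp4 stood at 15.4 CPM in the mutant library and 10.4 CPM in the wild-type library (2007 and 1659 UMIs), a log2 ratio of 0.56 (0.47 to 0.66). elp6 stood at 17.3 and 13.4 CPM, 0.37 (0.28 to 0.45), and elp5 at 14.7 and 11.9 CPM, 0.31 (0.21 to 0.40). All of the ring subunits were called higher. elp2 and elp3 were not: the log2 ratio was 0.14 (0.06 to 0.22) for elp2 and 0.03 (-0.05 to 0.12) for elp3, the catalytic subunit. ctu2 was called higher at 0.36 and ctu1 was not, at 0.22. alkbh8 had 10.8 and 7.34 CPM, a log2 ratio of 0.56 (0.44 to 0.67). Over the 8 Elongator and thiolation genes, 4 were called higher and 0 lower, beside 17.7% and 4.74% of all genes. Their median was 0.26.

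The gene models of elp4 and immp1l overlap, and immp1l had a log2 ratio of 0.77 (0.67 to 0.86). The model of elp6 overlaps that of cdc42se1, at 0.42 (0.36 to 0.49). Part of the counts of elp4 and elp6 could therefore belong to neighbours that differed in the same direction. In all, 24 members overlap another measured protein-coding gene.

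The AlkB dioxygenases include enzymes that remove methyl groups from nucleic acids or add hydroxyl groups. They had 4 of 8 members higher and 0 lower, beside 17.7% and 4.74% of all genes. Their median was 0.25, which was 0.09 over those of at least 10 CPM (alkbh1, alkbh3 and alkbh4). alkbh2 had the largest ratio of all members, at a low level: 487 UMIs (3.73 CPM) in the mutant library and 260 (1.63 CPM) in the wild-type library, a log2 ratio of 1.19 (0.97 to 1.41). The gene model of alkbh2 overlaps that of bcl7a, whose log2 ratio was 0.01. alkbh1, whose human counterpart acts on methylated adenosines and cytosines of tRNA, had 0.30 (0.20 to 0.41). alkbh4 had -0.00 (-0.10 to 0.09), and alkbh5 was not called at 0.07.

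Calls in the remaining roles stand beside 17.7% higher and 4.74% lower of all genes. pus1, which makes pseudouridine in cytosolic and mitochondrial tRNAs, stood at 20.03 CPM in the mutant library and 15.8 CPM in the wild-type library, a log2 ratio of 0.34 (0.26 to 0.42). It was the only 1 of 5 pseudouridine synthases called higher, and pus10 had -0.01. Of the 5 NSUN cytosine methyltransferases only nsun4 was called higher, at 0.29, and nsun5 had 0.20. nsun2, the main cytosine methyltransferase of cytosolic tRNAs, had 23.2 and 20.9 CPM, 0.15 (0.08 to 0.22). trnt1, which adds the CCA end, had 10.2 and 9.66 CPM, 0.08 (-0.02 to 0.19), close to the median of all genes.

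Other genes of tRNA processing that the symbol rule leaves out gave similar counts. Of 61 listed, 55 were found and tested: 22 were higher and 0 lower, beside 17.7% and 4.74% of all genes. Their median log2 ratio was 0.19, beside 0.07 for all genes. This list too was chosen with earlier results of these data known. The 3 largest ratios were those of yrdc (1.03), which acts in making threonylcarbamoyladenosine, rtcb (1.01), the ligase that joins tRNA exons after the splicing endonuclease has cut, and dph3 (0.99), which in yeast serves both diphthamide synthesis and Elongator. rtcb had 4660 and 2813 UMIs, 35.7 and 17.7 CPM. Its log2 ratio was of similar size to that of the endonuclease subunit tsen34 (0.93). The endonuclease subunits tsen15 (0.14) and tsen54 (0.25) were not called. xpot, the tRNA export receptor, had 0.56. larp7, which binds the small nuclear RNA 7SK, had -0.19 and was not called.

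Cells were assigned to types by marker gates: at least 3 different markers of a type detected, and fewer than 3 of every other type. Of 26 gates, 13 held at least 100 cells in each library. Gates hold cells like the named type and not a verified type. The gate for melanin pigment cells was led by genes of the retinal pigment epithelium (rpe65a, rlbp1b, stra6) beside pmelb and dct. The gate for neural crest and peripheral glia was led by scn4ab beside foxd3 and erbb3b, and its cells are named here only by that gate. Cells that passed more than 1 gate, 24.71% and 25.01% of the kept cells, were left out of the types.

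In the wild-type library the summed member level was highest in radial glia-like cells (950 CPM, 927 to 973), muscle-like cells (923 CPM, 884 to 962) and the neural crest and peripheral glia gate (894 CPM, 823 to 970), whose intervals overlap. It was lowest in the melanin pigment gate (469 CPM, 428 to 513), bipolar-like cells (503 CPM, 460 to 548) and endothelium-like cells (515 CPM, 459 to 576), whose intervals also overlap. Neuron-like cells stood at 755 CPM, mesenchyme-like cells at 704, xanthophore-like cells at 662, macrophage-like cells at 635, periderm-like cells at 596, photoreceptor-like cells at 595 and chondrocyte-like cells at 569. Radial glia, muscle and the neural crest and peripheral glia gate were also the 3 highest in the mutant library, at 1204, 1371 and 1059 CPM. Across the 13 types the levels of the libraries had a Pearson r of 0.92 and a Spearman rho of 0.83, as a description, since all types of a library share its preparation.

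**Figure D2:**
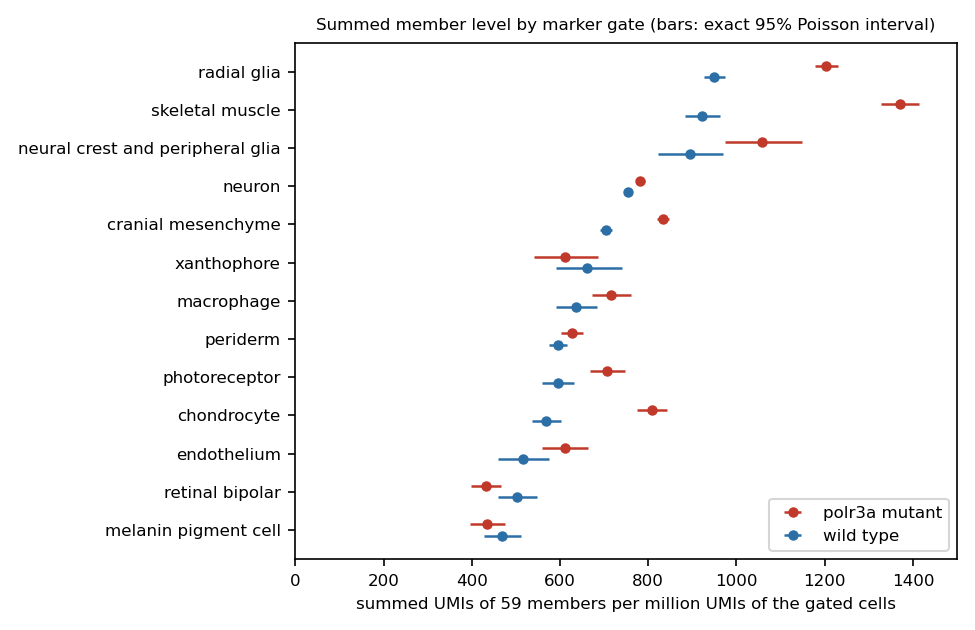
Summed UMIs of the 59 members per 1000000 UMIs (x axis) in cells of each marker gate, for the mutant (red) and wild-type (blue) library; bars are exact 95% Poisson intervals and gates are ordered by the wild-type level. Muscle (1371 against 923 CPM), radial glia (1204 against 950) and chondrocyte (808 against 569) gates show the widest separation, and neurons (782 against 755) little.

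pop7 and trmt112 made up 18.1% of member UMIs in the mutant library and 21.4% in the wild-type library, and their levels depended on the type. In wild-type neuron-like cells they made up 29.9%. Without them the wild-type level was 529 CPM in neuron-like, 598 in mesenchyme-like and 577 in xanthophore-like cells, so the order of these types changed. Radial glia, the neural crest and peripheral glia gate and muscle stayed highest, at 826, 758 and 752 CPM. The ranges given here compare only types in which a member had at least 20 UMIs over both libraries. Among these, pop7 was highest in neuron-like cells, at 170 CPM in the mutant library and 166 in the wild-type library. It was lowest in periderm-like cells, at 23.2 and 24.6 CPM. The mean of both libraries differed 7.05-fold between these types. trmt112 was highest in muscle-like cells, at 127 and 120 CPM, and lowest in bipolar-like cells, at 16.8 and 37.8 CPM. By this measure pus1 had the widest range of the other members, 5.57-fold, from muscle (62.4 and 37.5 CPM) to photoreceptor-like cells (11.3 and 6.62 CPM). tsen34 followed at 5.52-fold, from radial glia (48.8 and 22.3 CPM) to photoreceptors (7.36 and 5.51 CPM). The lower ends rest on few UMIs. Types where a member was nearly absent are left out of this measure. rpp25b had 0 UMIs in the muscle and periderm gates of both libraries, beside 12.6 and 7.61 CPM in neurons.

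The difference between libraries was largest in the muscle and chondrocyte gates, followed by radial glia, where with at most 10000 UMIs per cell the log2 ratio (0.29) was no larger than in photoreceptors (0.30) and endothelium (0.29). In skeletal muscle-like cells (344 mutant and 340 wild-type cells) the summed level was 1371 and 923 CPM, a log2 ratio of 0.57 (0.49 to 0.65), and 27 of 52 members were higher and 0 lower, beside 22.3% and 8.79% of all genes. The median was 0.59 for members and 0.18 for all genes of that gate. Median UMIs per cell were 7572 and 5836.5 there, 5947 and 4332.5 in chondrocyte-like cells and 4605 and 3339.5 in radial glia-like cells. They were 9362 and 6990 in macrophage-like cells and 3633 and 3220 in neuron-like cells. The part of depth in the differences between libraries was not tested. With at most 10000 UMIs per cell the log2 ratio in muscle was 0.45.

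Radial glia-like cells (1253 and 1632 cells) had 29 of 57 members higher and 0 lower, beside 13.4% and 10.2% of all genes, with medians of 0.38 for members and -0.00 for all genes. The summed level was 1204 and 950 CPM, a log2 ratio of 0.34 (0.30 to 0.39). Mesenchyme-like cells (3239 and 3831 cells) had 20 of 56 higher and 0 lower, beside 11.0% and 7.25%, with medians of 0.25 and 0.04 and a summed log2 ratio of 0.24 (0.21 to 0.28). Chondrocyte-like cells (445 and 450 cells) had 12 of 49 higher and 0 lower, beside 14.9% and 6.09%, with medians of 0.42 and 0.11. Their summed log2 ratio was 0.51 (0.41 to 0.61), and 0.29 when cells that also passed the neuron or mesenchyme gate were kept, which raised the cells to 939 and 993.

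In neuron-like cells, the largest gate (7446 and 11939 cells), the members hardly differed between libraries. The summed level was 782 and 755 CPM, a log2 ratio of 0.05 (0.03 to 0.08), which was 0.00466 with a total that leaves out ribosomal protein and mitochondrial genes. Of 58 members 7 were higher and 0 lower, beside 14.0% and 8.14% of all genes, and the medians were 0.07 and 0.06. The 7 were alkbh2, alkbh8, elp4, rpp25b, trmt1, trmt61b and tsen34. pop7, at 5186 and 7259 UMIs in these cells, had a log2 ratio of 0.03 (-0.02 to 0.08). rpp38 had the smallest ratio in neurons, at 310 and 535 UMIs, a log2 ratio of -0.27 (-0.48 to -0.07), which missed the fold threshold.

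In the other types few members were called. Periderm-like cells had 5 of 55 higher and 1 lower, beside 12.5% and 7.94%, with medians of 0.12 for members and 0.05 for all genes. Photoreceptor-like cells had 4 of 43 higher and 0 lower, beside 10.3% and 5.82%. Their summed log2 ratio was 0.25 (0.13 to 0.37), close to that of mesenchyme, and the medians were 0.42 for members and 0.08 for all genes. Macrophage-like cells had 2 of 34 higher, ctu2 and trmt6, and 0 lower, beside 7.19% higher and 4.84% lower of all genes, and their summed log2 ratio of 0.17 became 0.0232 with at most 10000 UMIs per cell. The neural crest and peripheral glia gate had 1 of 26 higher, rpp38, and 0 lower, beside 8.02% and 5.89%, and a summed log2 ratio of 0.24 (0.08 to 0.41). In endothelium-like cells 0 of 14 and in the melanin pigment gate 0 of 17 were called in either direction, beside 6.14% higher and 5.05% lower of all genes in the first and 7.8% and 8.01% in the second. The summed log2 ratio in endothelium-like cells was 0.24 (0.04 to 0.45). In the melanin pigment gate it was -0.11 (-0.29 to 0.08), a sign that depended on the gate. Only 4 members were tested in xanthophore-like cells, none of them called, beside 7.62% higher and 8.47% lower of all genes, and the sign of their summed log2 ratio, -0.12 (-0.35 to 0.12), depended on the cell filter and on the gate. Over all gates, 481 pairs of member and type were tested, 107 were higher and 3 lower, beside 11.7% and 7.44% of all gene and type pairs. At a threshold of 1.5-fold 69 pairs were higher and 2 lower, beside 6.34% and 4.92% of all pairs. Of the 58 members tested in at least 1 type, 42 (72.4%) were higher in at least 1, beside 45.3% of all 22046 genes so tested, and 3 were lower in at least 1, beside 30.8%. The call was higher in one type and lower in another for 2 members, beside 13.5% of all genes. Members were tested in a median of 8.5 types and all genes in 7. A type in which no difference was called is not shown to differ from one in which it was, since no test of that was possible.

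**Figure D3:**
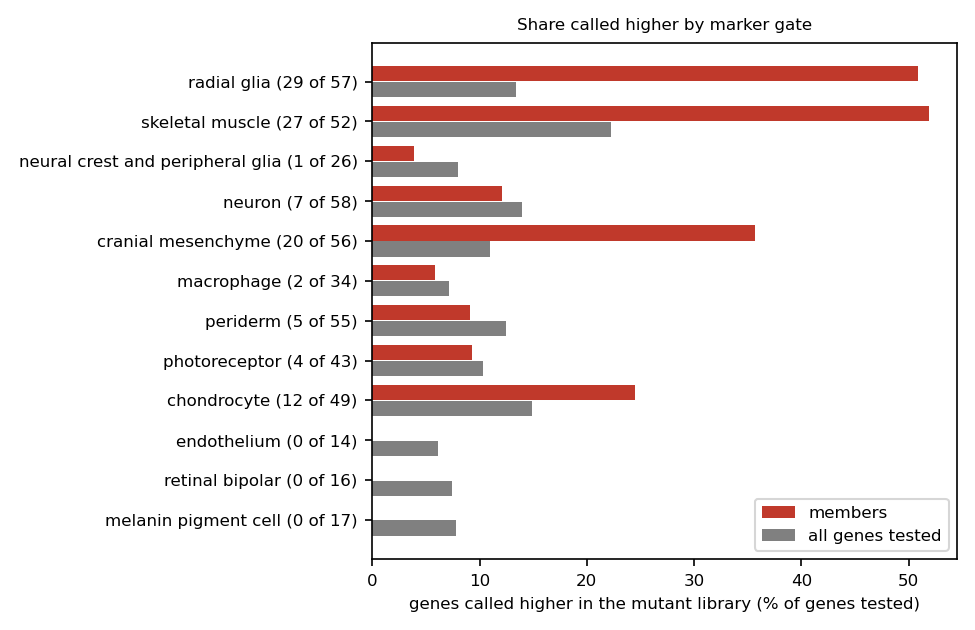
Share of genes called higher in the mutant library (x axis, % of genes tested) for members (red) and all genes (grey) in the 12 gates with at least 14 members tested; numbers beside the names count members. Radial glia (29 of 57), skeletal muscle (27 of 52) and cranial mesenchyme (20 of 56) lie above the grey bars of 13.4%, 22.3% and 11.0%, and neurons (7 of 58) below theirs of 14.0%.

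Retinal bipolar-like cells (610 and 470 cells) had a lower summed level in the mutant library. It was 431 and 503 CPM, a log2 ratio of -0.22 (-0.39 to -0.05), and of 16 members tested 0 were higher and 2 lower, beside 7.42% and 7.39% of all genes. The 2 were trmt112, with 26 UMIs (16.8 CPM) in the mutant library and 39 (37.8 CPM) in the wild-type library, and pop7, with 144 UMIs (93.3 CPM) and 124 (120 CPM). Without these 2 genes the log2 ratio was -0.10 (-0.30 to 0.10), an interval that holds 0. The median over the 16 members was 0.06, beside 0.04 for all genes, and 8 of the 16 lay above the median of all genes. With a gate of 4 markers the value with all members was -0.06. With cells that also passed the neuron or mesenchyme gate kept, pop7 was not called in bipolar-like cells, at -0.11 (-0.29 to 0.06). trmt112 was still called lower, at -0.68 (-1.01 to -0.35).

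tsen34 was called higher in 5 of the 11 types where it was tested. In muscle-like cells it had 120 UMIs (42.6 CPM) in the mutant library and 24 (10.2 CPM) in the wild-type library, a log2 ratio of 2.06 (1.42 to 2.76). In radial glia it stood at 48.8 and 22.3 CPM (1.13, 0.84 to 1.41), in neurons at 9.21 and 4.74 CPM (0.96, 0.69 to 1.22) and in mesenchyme at 25.8 and 15.9 CPM (0.69, 0.46 to 0.93). In periderm the interval was wide, 0.52 (0.02 to 1.01). In macrophages, with 41 and 35 UMIs, the levels were 29.5 and 30.5 CPM and the log2 ratio -0.05 (-0.73 to 0.65). These intervals cover counting error only, and the difference between macrophages and muscle was not tested.

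elp4 was called higher in 5 of 9 types. In chondrocyte-like cells it had 41 and 11 UMIs, 14.7 and 5.16 CPM, a log2 ratio of 1.51 (0.52 to 2.62), and in muscle 101 and 41 UMIs, 1.04 (0.50 to 1.60). Mesenchyme (0.70), radial glia (0.68) and neurons (0.41) followed. With cells that also passed the neuron or mesenchyme gate kept, elp4 had 0.79 (0.16 to 1.43) in chondrocytes and 1.01 (0.54 to 1.49) in muscle. elp6 was called higher in muscle (0.99), mesenchyme (0.57) and radial glia (0.43), and its interval in neurons was -0.01 to 0.36.

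trmt6 was called higher in 6 of 10 types, more than any other member, with the largest value in chondrocyte-like cells: 122 UMIs (43.6 CPM) in the mutant library and 38 (17.8 CPM) in the wild-type library, a log2 ratio of 1.29 (0.76 to 1.86). Its partner trmt61a had 79 and 30 UMIs there, 1.01 (0.38 to 1.66). Both partners were also called higher in muscle (0.77 and 0.56), mesenchyme (0.64 and 0.38) and radial glia (0.45 and 0.41). In neurons their log2 ratios were 0.07 (-0.09 to 0.23) and 0.14 (-0.06 to 0.34). pus1 was called higher in the same 4 types, at 0.79 in chondrocytes, 0.74 in muscle, 0.38 in radial glia and 0.28 in mesenchyme, and stood at 0.13 (-0.10 to 0.36) in neurons. The order of chondrocytes and muscle depended on the gate. With cells that also passed the neuron or mesenchyme gate kept, trmt6 had 0.82 (0.44 to 1.22) in chondrocytes and 0.88 (0.47 to 1.30) in muscle. pus1 then had 0.56 and 0.79, and trmt61a 1.16 and 0.45.

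**Figure D4:**
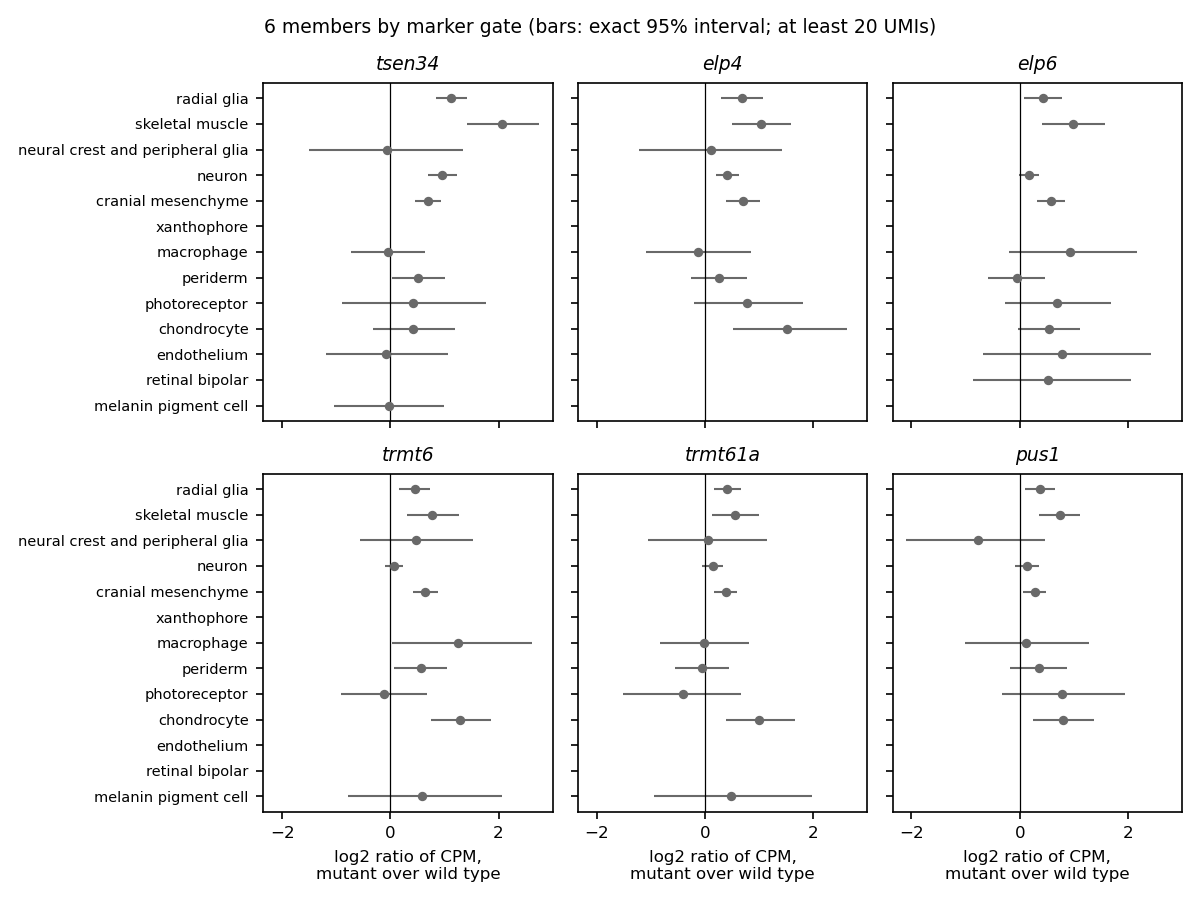
Log2 ratio of CPM (mutant over wild type, x axis) in each marker gate for 6 members, in gates where the member had at least 20 UMIs over both libraries; bars are exact 95% intervals for counting error only. tsen34 reaches 2.06 in muscle and stays near 0 in macrophages (-0.05), and trmt6 reaches 1.29 in chondrocytes against 0.07 in neurons.

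Other members reached large ratios in single types. ctu1 had the largest ratio in mesenchyme, at 218 and 123 UMIs, 0.76 (0.43 to 1.09). alkbh2 had the largest in radial glia, at 48 and 18 UMIs, 1.44 (0.63 to 2.31), and in neurons, at 82 and 48 UMIs, 1.29 (0.76 to 1.83), and it was called higher in all 4 types where it was tested. alkbh8 had 64 and 17 UMIs in muscle, 1.65 (0.86 to 2.51). tsen54 had 33 and 24 UMIs in periderm, 0.997 (0.19 to 1.82), where trmt112 had -0.30 (-0.56 to -0.03).

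Cells with transcripts of the G2 and M phases held more of the members per UMI. Cells with at least 3 of 13 G2/M markers (such as mki67, top2a and aurkb) numbered 3205 in the mutant and 5802 in the wild-type library. The summed member level was 983 CPM in these cells and 791 CPM in the others of the mutant library, a log2 ratio of 0.31 (0.29 to 0.33), and 902 and 687 CPM in the wild-type library, 0.39 (0.37 to 0.41). The ratio of G2/M to other cells was above 1 for 48 of 58 members in the mutant library, beside 34.1% of all genes, and for 53 of 58 in the wild-type library, beside 32.0%. The median log2 ratio was 0.34 and 0.43 for the members and -0.30 and -0.37 for all genes. The G2/M cells were also deeper, with medians of 6940 and 5914.5 UMIs against 3762 and 3097, and the part of depth and of cell type in this difference was not tested.

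pus3, a pseudouridine synthase of the anticodon arm, stood out at 11.3 CPM in G2/M cells and 4.40 in the others of the mutant library (log2 ratio 1.36) and at 9.40 and 3.48 CPM in the wild-type library (1.43). rpp40 (1.12 and 1.25) and rpp30 (0.90 and 1.197), both RNase P and MRP proteins, were also higher in G2/M cells. The gene models of pus3, rpp40 and rpp30 overlap those of naglu, cdyl and kif20bb, and reads of overlapping genes cannot be told apart. Over all cells kif20bb had 3386 mutant and 4438 wild-type UMIs, beside 1323 and 1209 for rpp30. The level of these neighbours in G2/M cells was not examined. pop7 had the reverse sign in both libraries, -0.36 and -0.39, and so did rpp25a, at -2.38 and -3.06, and rpp25b, at -3.01 and -1.43. alkbh7 (-0.29 and -0.13) and alkbh3 (-0.13 and -0.06) were also below 0 in both libraries. Their intervals held 0 except that of alkbh7 in the mutant library. Among the 13 gates rpp25a reached 20 UMIs only in neurons, and rpp25b only in neurons and radial glia. tsen34 had 35.7 and 17.5 CPM in the mutant library (1.03) and 14.8 and 9.65 CPM in the wild-type library (0.62).

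**Figure D5:**
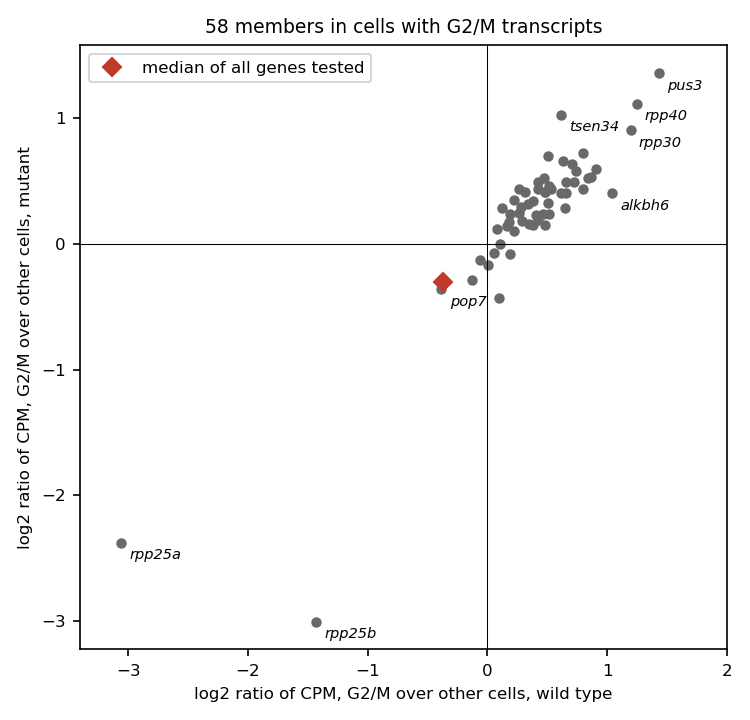
Log2 ratio of CPM in cells with G2/M transcripts over the other cells, in the wild-type (x axis) and mutant (y axis) library, with 1 point per member (58) and the median of all genes as a red diamond (-0.37 and -0.30). Most members lie in the upper right, pus3 farthest at 1.43 and 1.36. In the lower left lie rpp25a, rpp25b, pop7, alkbh7 and alkbh3.

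The share of G2/M cells was lower in the mutant library, 12.1% against 15.7%, and its part in the difference between libraries was not tested. It was 5.81% and 10.3% in muscle-like cells and 19.6% and 21.4% in radial glia-like cells. In the neural crest and peripheral glia gate (120 and 138 cells) it was 18.3% and 37.7%. In xanthophore-like cells (137 and 140 cells) it was 0.73% and 7.14%. It was higher in the mutant library in chondrocyte-like cells (2.697% and 2.0%), macrophage-like cells (28.1% and 26.7%) and the melanin pigment gate (5.81% and 4.18%). Within G2/M cells the summed level had a log2 ratio of 0.12 (0.10 to 0.15) between the libraries, and within the other cells one of 0.20 (0.19 to 0.22).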

How the data were processed

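The authors deposited 1 matrix per library of UMI counts, whole numbers per gene and cell barcode and not normalized, made with Cell Ranger (8.0.0 in the file headers, another version in the methods of the study) against GRCz11. Whether counting used strand is not given in the sources used here. The matrices held 32228 mutant and 43611 wild-type barcodes, the numbers of captured cells that the methods give.

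Cells with 500 to 20000 UMIs, 500 to 5000 genes, no more than 20% of UMIs from mitochondrial genes and a novelty of 0.8 or above (the log of the gene number divided by that of the UMIs) were kept, as in the methods of the study. No doublet caller was run. Cells passing more than 1 marker gate were left out of types, and free RNA was not estimated. UMIs were pooled over cells and divided by the total of all genes (CPM). The log2 ratio of mutant over wild-type CPM was given with an exact 95% conditional binomial interval, levels with an exact Poisson interval. These intervals cover counting error only. Over all cells, genes averaging 1 CPM or more were tested, and genes with at least 20 UMIs over both libraries within a type. The interval code was tested on simulated data. Overlapping gene models were found by comparing the gene coordinates of a RefSeq table of GRCz12tu, in which all 59 members matched by symbol. The counts were made against GRCz11, so overlaps may differ between the assemblies. No coordinate is printed here.

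The rule for naming members took, among those of at least 10 CPM, the 6 largest and 6 smallest ratios and the member of each role farthest from the median of all genes, and among all members the 6 widest ranges among types and in each type the largest and smallest ratio with at least 50 UMIs and an interval without 1. The ranges used types in which a member had at least 20 UMIs over both libraries. Other members are named beside those of the rule to describe their role, after their values were seen. Values of some single members are not reported here. The members and lists were chosen with earlier results of these data known. The values were recomputed under 14 alternatives and 1 more chosen after seeing the data. Python 3.11.15, numpy 2.4.6, scipy 1.17.1, pandas 2.3.3 and matplotlib 3.10.9 were used.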

Additional observations from a re-analysis of the deposited data

Results flagged for a closer look

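For 2 members the call was higher in one type and lower in another, beside 13.5% of all genes tested in at least 1 type, and the difference between types was not tested. alkbh6 had a log2 ratio of -1.998 (-3.72 to -0.61) in periderm-like cells, on 5 mutant and 29 wild-type UMIs, and 1.70 (0.61 to 2.94) in muscle-like cells, on 35 and 9 UMIs, and was also called higher in radial glia-like cells. pop7 had -0.37 (-0.72 to -0.01) in bipolar-like cells, on 144 and 124 UMIs, and 0.40 (0.06 to 0.74) in muscle-like cells, on 188 and 119 UMIs. Both pop7 calls depended on the gate. With cells that also passed the neuron or mesenchyme gate kept, pop7 had -0.11 (-0.29 to 0.06) in bipolar-like and 0.05 (-0.21 to 0.31) in muscle-like cells. Neither was then called, and pop7 was called lower in periderm-like cells, at -0.48 (-0.74 to -0.22).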

How the results depend on the processing

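No paired analysis was possible because each condition had 1 library, and for the same reason no library could be left out. Of the values over all cells, those of each role, those of each type and the counts, 130 of 160 alternative values stayed within the spread set by counting error or within 1.5 times the count; for single named members 90 of 112 did, 21 moved and 1 reversed. The reversal was pop7, at 0.00696 with wild-type cell type shares, where 0 members were lower. Over genes of at least 10 CPM 8 members were higher and 0 lower, and the medians of the splicing endonuclease and of AlkB were 0.54 and 0.0869. The first of these medians rests on tsen34 (0.93) and tsen15 (0.14) alone, and the second on alkbh1, alkbh3 and alkbh4. At 1.5-fold 2 members were higher, 0 lower, and 69 pairs of member and type higher, beside 6.34% of all gene and type pairs. Centred on the median of all genes, 15 members were higher and 1 lower, where the main counts were 20 and 1. The share of all genes called after centring was not computed. The median of the members was then 0.114, that of RNase P and MRP 0.112 and that of NSUN 0.0769. On log2 of 1 plus the mean UMIs per 10000, which shrinks low genes, the medians were 0.0156 for all members, 0.0195 for RNase P and MRP, 0.0199 for NSUN, 0.0191 for Elongator and thiolation, 0.0173 for AlkB, 0.0121 for the splicing endonuclease and 0.0114 for TRMT. With at most 10000 UMIs per cell the summed log2 ratio was 0.21 in mesenchyme, 0.45 in muscle, 0.29 in radial glia, 0.30 in photoreceptors, 0.29 in endothelium, 0.0232 in macrophages and 0.27 in xanthophores. Without ribosomal protein and mitochondrial genes in the total it was 0.20 in mesenchyme and 0.00466 in neurons. With gates of 4 markers it was 0.68 in muscle and 0.28 in radial glia. In the melanin pigment gate it was 0.18 with 4 markers, where the main value was -0.11 (-0.29 to 0.08). With cells that also passed the neuron or mesenchyme gate kept, an alternative chosen after seeing the data, it was 0.29 in chondrocytes and 0.27 in radial glia. With that gate 124 pairs of member and type were higher and 8 lower, where the main counts were 107 and 3. The share of all gene and type pairs called with that gate was not computed. The cause of these changes was not tested. The endothelium, xanthophore, melanin pigment, bipolar and neural crest and peripheral glia gates held the fewest member UMIs. In each of them at most 26 members reached 20 UMIs.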
